A study of Saccharomyces cerevisiae with 12 samples.

Results

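The 37 genes described here build the entry gate of the yeast secretory pathway and the enzymes that attach sugars to proteins as they enter it. They were taken by symbol from a list of translocon, protein folding, N-glycan assembly, oligosaccharyltransferase and O-mannosyltransferase genes. All 37 had a probe, out of 5636 genes tested. A strain of the budding yeast Saccharomyces cerevisiae lacking GCR1, the gene of a transcription activator of glycolytic enzymes, was grown in 3% raffinose, 3% galactose or 2% glucose. RNA was compared on 2-colour arrays, with 4 arrays per sugar and 12 in all. The sources used here do not name the second strain on each array. Some of the 4 arrays of a sugar repeat the same culture with the dyes exchanged, and the labels do not say which, so each sugar had fewer than 4 independent cultures and p-values may be too small.

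Proteins bound for the cell surface, the vacuole or the medium pass into the endoplasmic reticulum (ER) through a channel formed by Sec61 and are folded there with the help of the chaperone Kar2. A branched sugar is built step by step on the lipid dolichol, first on the cytosolic and then on the lumenal face of the ER membrane, and the oligosaccharyltransferase complex moves it as one block onto asparagines. The Pmt enzymes add single mannoses to serines and threonines, using dolichol-phosphate-mannose as the donor. In yeast these glycans go on to carry much of the mannan of the cell wall.

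Values are log2 ratios of the 2 channels of an array, averaged over a gene's probes. Which channel held the mutant is not given, so a ratio above 0 is read throughout as higher in the labelled gcr1 null, and this direction is likely but not settled. It rests on GPM1 and ENO2, glycolytic genes known to need Gcr1, whose mean log2 ratios were −5.39 ± 0.88 and −5.05 ± 0.73 in raffinose, −4.86 ± 0.97 and −4.48 ± 0.90 in galactose, and −4.96 ± 1.15 and −5.37 ± 1.10 in glucose (SD, n = 4 arrays). The probes of GCR1 itself went the other way, with mean log2 ratios of 1.67 ± 0.35 in raffinose, 1.58 ± 0.22 in galactose and 0.40 ± 0.13 in glucose, and whether they lie inside the deleted stretch was not tested. Under the opposite reading every "higher" and "lower" below changes place. Replicates 1 and 2 of each sugar also stood apart from replicates 3 and 4: 114 unnamed spots with very large ratios changed sign between them, with median log2 ratios of −8.54 on replicates 1 and 2 and 7.98 on replicates 3 and 4. In raffinose the 2 pairs correlated negatively over all probes (r from −0.507 to −0.340), although positively over the probes with a gene name (r from 0.243 to 0.466). The raffinose results are therefore also given with replicates 3 and 4 turned. As deposited, raffinose replicates 1 to 4 gave −4.67, −4.60, −6.13 and −6.17 for GPM1, and −4.44, −4.39, −5.73 and −5.63 for ENO2. As deposited, both genes were below 0 on all 12 arrays. Turning makes both positive on replicates 3 and 4 and leaves them negative on replicates 1 and 2. The raffinose arrays then differ in direction for these genes under either reading. The galactose pairs correlated weakly negatively over all probes (r from −0.143 to −0.0513) and positively over the named ones (r from 0.657 to 0.733), and turned galactose arrays were not run. In glucose both were positive.

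Most of the called members were lower in the labelled gcr1 null. A gene was called when limma's adjusted p over all 5636 genes was under 0.05. In raffinose 2 of the 37 genes were called higher and 5 lower, against 36.7% of all genes tested that were called, 22.4% higher and 14.3% lower. In galactose 2 were called higher and 11 lower, against 60.0% of all genes called, 34.8% higher and 25.2% lower. In glucose 0 were called higher and 18 lower, against 58.6% of all genes called, 26.8% higher and 31.8% lower. Calls were thus a smaller share of these genes than of all genes in each sugar, and the members' share called lower was above that of all genes in galactose (29.7% against 25.2%) and glucose (48.6% against 31.8%) and below it in raffinose (13.5% against 14.3%). The members had a median log2 ratio of −0.18 (raffinose), −0.32 (galactose) and −0.37 (glucose), where the median of all genes was 0.05, 0.08 and −0.04.

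**Figure D1:**
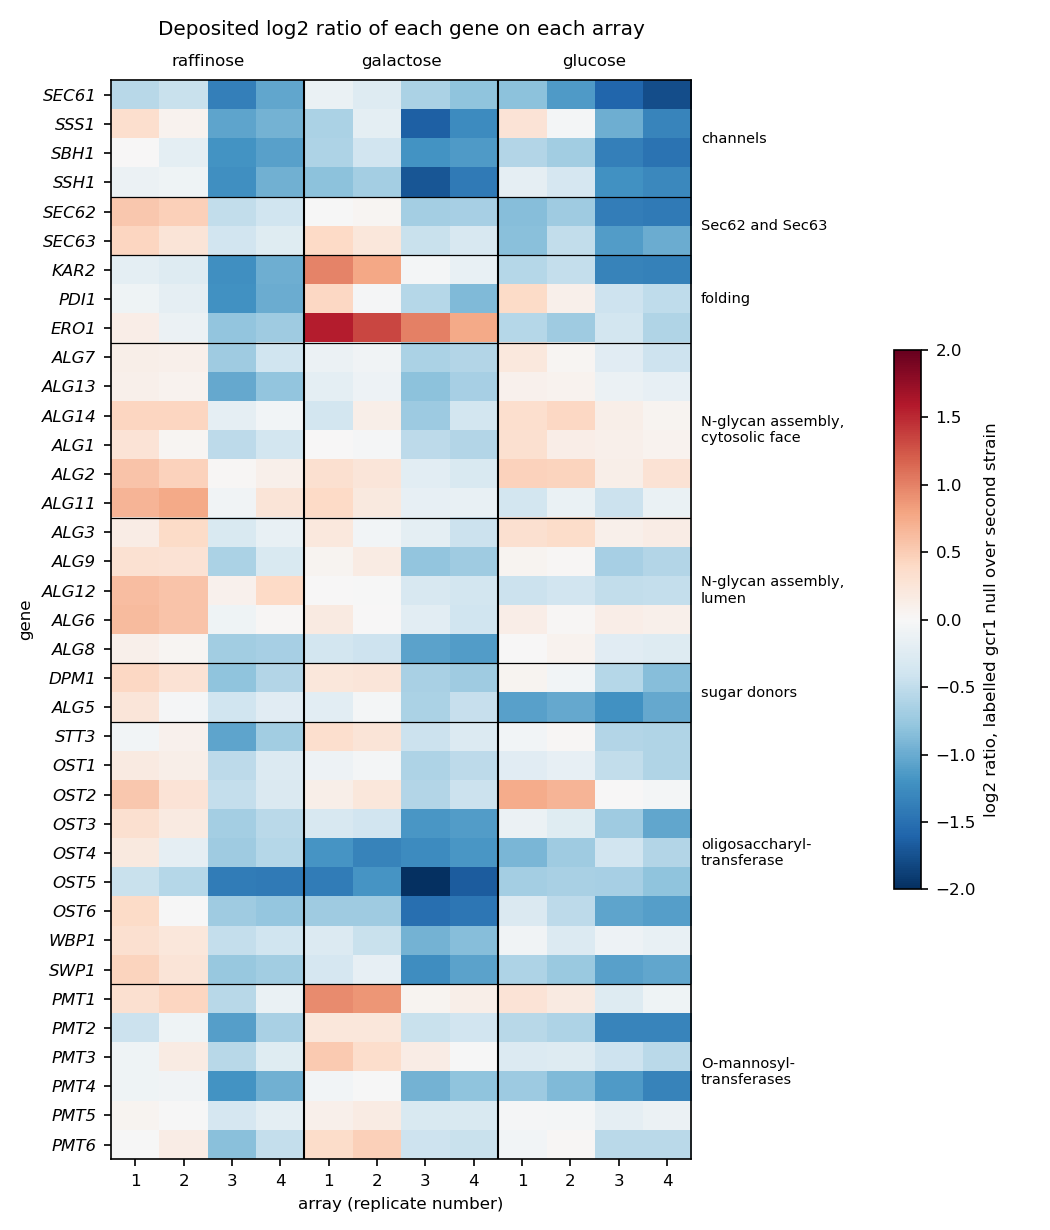
Log2 ratio of each of the 37 genes (rows, grouped by role) on each of the 12 arrays (columns, by sugar and replicate). Blue marks values below 0, and the columns of replicates 3 and 4 are bluer than those of replicates 1 and 2 in each sugar.

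Part of the spread between arrays followed the replicate number. The members' median log2 ratio was 0.15 on replicates 1 and 2 and −0.60 on replicates 3 and 4 in raffinose, 0.00 and −0.57 in galactose, and −0.18 and −0.54 in glucose. The 2 pairs differed by a median of 0.733 for the members in raffinose, by 0.641 in galactose and by 0.390 in glucose, where the gap over all genes was 0.530, 0.481 and 0.151. In raffinose 26 of the 37 genes had opposite signs in the 2 pairs, in galactose 16 and in glucose 9. These were 70.3%, 43.2% and 24.3% of the members, against 45.4%, 28.5% and 20.7% of all genes. The direction of a ratio near 0 therefore depended on which arrays were read, and the part of dye effects in it was not tested. With the replicate number as a block, the 3 sugars had 20, 26 and 28 called members in the order above, while 60.4%, 76.8% and 74.9% of all genes were. The block takes the gap between the pairs out of the error and counts the 2 arrays of a pair as independent. Arrays of a pair correlated at r from 0.933 to 0.975 over the named probes and may repeat 1 culture. The p-values given with the block may therefore be far too small. Averaging replicates 1 and 2, and 3 and 4, left 10 of the members' 59 calls over sugars and contrasts: ERO1, OST4, OST5, OST6 and SSH1 in galactose, SEC61, SEC62, ALG5 and PMT2 in glucose, and ERO1 between galactose and glucose. Calls over all 5636 genes fell too, from 2071 to 184 in raffinose, from 3383 to 1688 in galactose and from 3302 to 1564 in glucose. Between galactose and glucose they fell from 2656 to 796.

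Of the 4 genes of the channels that carry proteins across the ER membrane, 2 were called lower in raffinose, 3 in galactose and 3 in glucose, and none was called higher, where 14.3%, 25.2% and 31.8% of all genes were called lower. SEC61 (YLR378C), the gene of the pore itself, had log2 ratios of −0.55, −0.45, −1.37 and −1.04 in raffinose and −0.81, −1.13, −1.59 and −1.78 in glucose. All 8 of these arrays were below 0. The means of −0.85 ± 0.43 in raffinose (0.554 times the second strain's level, adjusted p = 0.0036) and −1.33 ± 0.44 in glucose (0.398 times, adjusted p = 5.62e-05) both passed the test. SEC61 was higher in galactose than in glucose by 0.87 (SE 0.26, adjusted p = 0.0161), and without glucose replicate 4 this difference did not pass (adjusted p = 0.0527). In galactose SEC61 was also below 0 on all 4 arrays, at −0.13, −0.26, −0.63 and −0.80, with a mean of −0.46 ± 0.31 and an adjusted p of 0.0505, or 0.000449 with the replicate block. SBH1 (YER087C-B), which encodes the small beta subunit of the channel, had −0.58, −0.69, −1.36 and −1.47 in glucose, all below 0, with a mean of −1.03 ± 0.45 (adjusted p = 0.00169). Its means of −0.83 ± 0.40 in galactose (adjusted p = 0.00635) and −0.61 ± 0.61 in raffinose (adjusted p = 0.0486) were called too. The raffinose call of SBH1 was lost when raffinose replicate 3 or 4 was left out (adjusted p = 0.205 and 0.203) and under most other single omissions.

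SSH1 (YBR283C) encodes the pore of a second channel that works during translation. Its log2 ratios in galactose were −0.82, −0.69, −1.72 and −1.42, all below 0, with a mean of −1.16 ± 0.49 (adjusted p = 0.0013). In glucose its mean was −0.76 ± 0.58 (adjusted p = 0.0185), which did not pass once glucose replicate 3 or 4 was left out (adjusted p = 0.0972 and 0.104), and in raffinose −0.60 ± 0.58 (adjusted p = 0.0765, or 4.91e-05 with the block). SSS1 (YDR086C), the gamma subunit, was lower in galactose at −0.93 ± 0.64 (adjusted p = 0.0197), a call lost without galactose replicate 3 or 4 (adjusted p = 0.110 and 0.0761). In raffinose and glucose SSS1 had both signs among its arrays, with means of −0.40 ± 0.71 and −0.51 ± 0.75 that were called only with the block (adjusted p = 0.00737 and 0.000901).

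Sec62 and Sec63 join the channel to take in proteins after their translation, and Sec63 recruits Kar2 to the pore. Both genes were called lower in glucose, and their differences from raffinose and galactose were themselves called, although only the glucose call of SEC62 passed with replicates 1 and 2, and 3 and 4, averaged. SEC62 (YPL094C) had 0.55, 0.47, −0.49 and −0.40 in raffinose, −0.02, 0.05, −0.69 and −0.66 in galactose, and −0.85, −0.71, −1.38 and −1.41 in glucose, with means of 0.03 ± 0.55, −0.33 ± 0.40 and −1.09 ± 0.36 (adjusted p = 0.927, 0.186 and 0.000569). With the block the galactose mean of SEC62 was called lower too (adjusted p = 0.00205). The 4 glucose arrays lay below all 8 others, and SEC62 was higher in raffinose than in glucose by 1.12 (SE 0.29, adjusted p = 0.00936). SEC63 (YOR254C) had log2 ratios of 0.43, 0.25, −0.39 and −0.24 in raffinose, 0.40, 0.22, −0.45 and −0.32 in galactose, and −0.83, −0.50, −1.11 and −0.998 in glucose. The glucose mean was −0.86 ± 0.27 (adjusted p = 0.000912). Its glucose arrays were again the lowest 4 of 12, and it differed by 0.87 between raffinose and glucose (SE 0.24, adjusted p = 0.0138) and by 0.82 between galactose and glucose (SE 0.24, adjusted p = 0.0142). The same contrast of galactose with glucose gave 0.76 for SEC62 (SE 0.29, adjusted p = 0.047), which was lost when any of 5 single arrays was left out (galactose replicates 1 and 2, glucose replicates 1, 3 and 4), with adjusted p from 0.0544 to 0.124.

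Of the 3 genes of folding helpers in the ER lumen, ERO1 and KAR2 differed between sugars and PDI1 was not called in any contrast. ERO1 (YML130C), which supplies oxidising power for disulfide bonds, had log2 ratios of 0.13, −0.12, −0.79 and −0.72 in raffinose, 1.57, 1.34, 1.01 and 0.76 in galactose, and −0.56, −0.71, −0.37 and −0.61 in glucose. The galactose arrays stood above every other array with no overlap. The galactose mean of 1.17 ± 0.36 was 2.25 times the second strain's level (adjusted p = 5.54e-05), the raffinose mean of −0.37 ± 0.45 was not called (adjusted p = 0.0937, or 0.019 with the block), and the glucose mean of −0.56 ± 0.14 was called lower (adjusted p = 0.0105). ERO1 was the member with the largest difference between sugars in 2 of the 3 contrasts: −1.55 for raffinose minus galactose (SE 0.23, adjusted p = 0.000422) and 1.73 for galactose minus glucose (SE 0.23, adjusted p = 6.12e-05).

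KAR2 (YJL034W), the gene of the lumenal Hsp70 chaperone BiP, had −0.19, −0.26, −1.23 and −0.97 in raffinose, 0.996, 0.77, −0.03 and −0.15 in galactose, and −0.57, −0.48, −1.33 and −1.34 in glucose. Its raffinose and glucose arrays were all below 0 and below every galactose array, and the means of −0.66 ± 0.52 in raffinose (adjusted p = 0.0432) and −0.93 ± 0.47 in glucose (adjusted p = 0.00436) were called. The galactose mean of 0.40 ± 0.57 was not (adjusted p = 0.166, or 0.0005 with the block). KAR2 was lower in raffinose than in galactose by −1.06 (SE 0.33, adjusted p = 0.0299) and higher in galactose than in glucose by 1.33 (SE 0.33, adjusted p = 0.00551). Its raffinose call was lost without raffinose replicate 3 or 4 (adjusted p = 0.180 and 0.152), and the raffinose minus galactose call without raffinose replicate 3 or 4 or galactose replicate 1 or 2 (adjusted p from 0.0709 to 0.0818). PDI1 (YCL043C), the disulfide isomerase that Ero1 oxidises, was not called in any sugar, with means of −0.61 ± 0.57 in raffinose (adjusted p = 0.0608, or 7.3e-05 with the block), −0.27 ± 0.58 in galactose (adjusted p = 0.356, or 0.013 with the block) and −0.11 ± 0.42 in glucose.

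**Figure D2:**
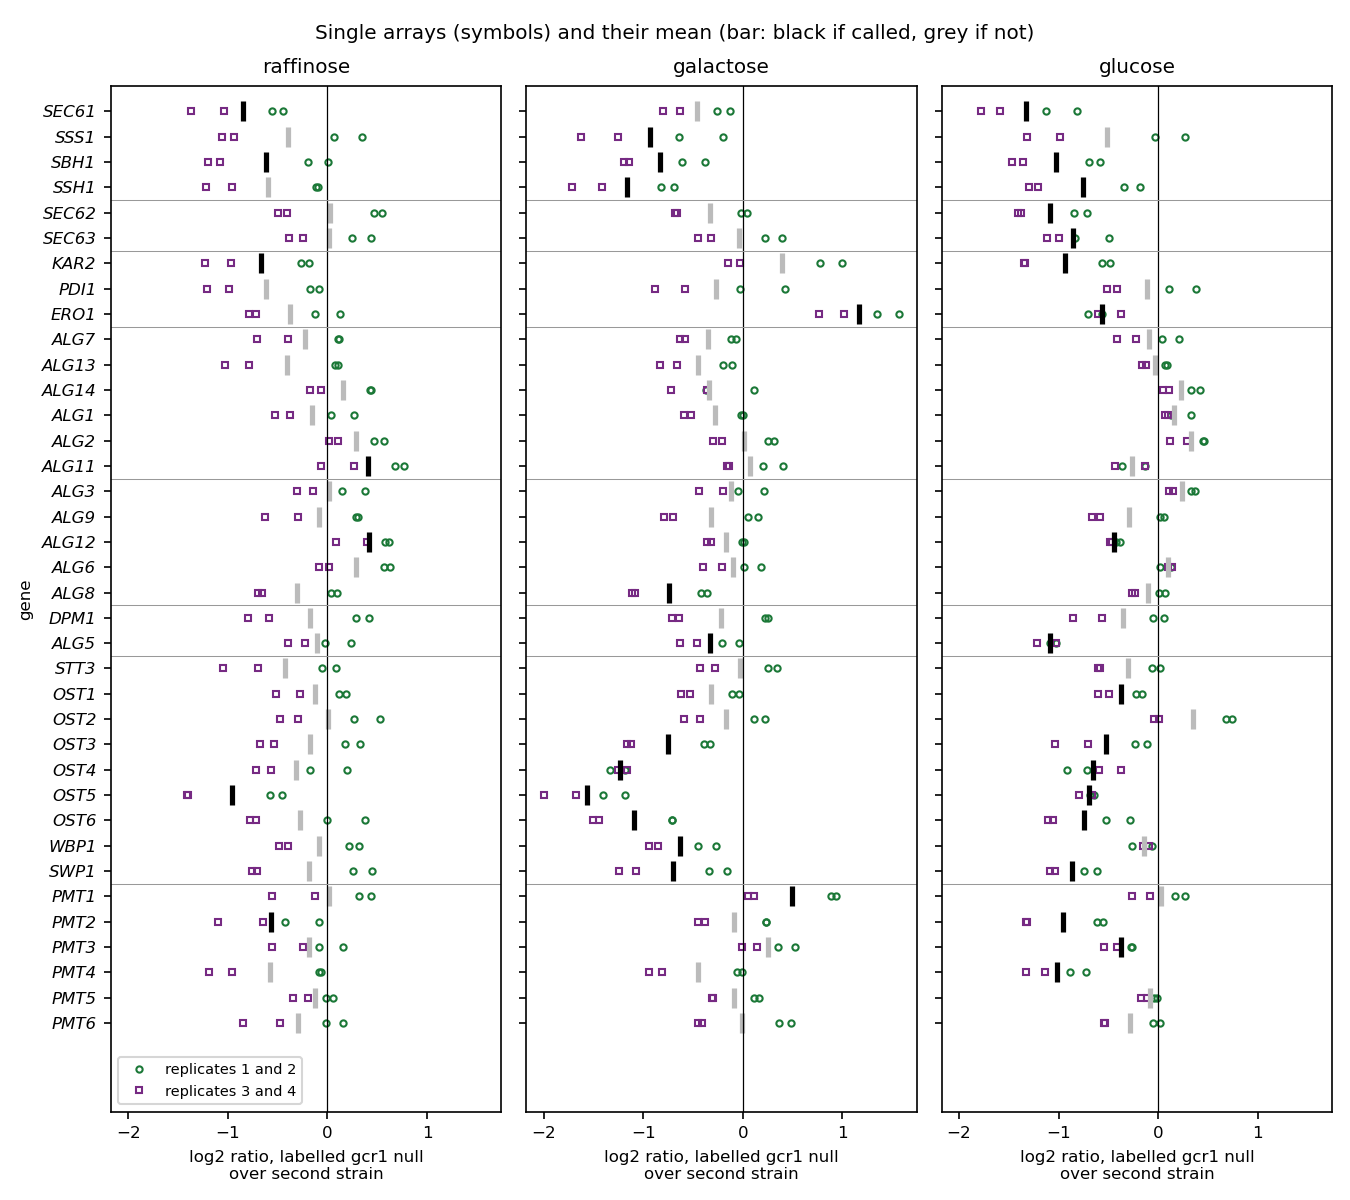
Log2 ratio of every member (vertical axis, in order of role) on the 4 arrays of each sugar (1 panel a sugar), with circles for replicates 1 and 2, squares for replicates 3 and 4, and a bar at the mean, black where called. ERO1 lies above 0 on all 4 galactose arrays, while SEC61 and OST5 lie below 0 on all 12 arrays.

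Few of the genes that build the lipid-linked sugar were called. The share of all 5636 genes with a call was 36.7% (raffinose), 60.0% (galactose) and 58.6% (glucose). Of the 6 genes acting on the cytosolic face, which add the first sugars to dolichol, 1 was called higher in raffinose, none lower there, and none was called in galactose or glucose. That gene was ALG11 (YNL048W), which adds the last mannoses of the cytosolic stage, with log2 ratios of 0.68, 0.77, −0.07 and 0.27 and a mean of 0.41 ± 0.39 (adjusted p = 0.0427). The raffinose call of ALG11 was lost under 8 of the 12 single omissions, with adjusted p up to 0.202. It was higher in raffinose than in glucose by 0.68 (SE 0.21, adjusted p = 0.0212), with no overlap between the 2 sets of arrays, and this call was lost without raffinose replicate 1 or 2 or glucose replicate 1 or 3 (adjusted p from 0.0523 to 0.0674). ALG7, the gene of the enzyme that starts the chain and the target of tunicamycin, averaged −0.22 ± 0.40 in raffinose, −0.35 ± 0.30 in galactose and −0.10 ± 0.28 in glucose, none of them called. With the block ALG7 was called lower in raffinose and galactose (adjusted p = 0.0299 and 0.00158), and ALG11 lower in glucose (adjusted p = 0.0306). ALG13 and ALG14 together encode the enzyme of the next step. They averaged −0.45 ± 0.35 (adjusted p = 0.0549) and −0.34 ± 0.34 (adjusted p = 0.0637) in galactose. With the block both were called lower there (adjusted p = 0.00216 and 0.0035), ALG13 was called lower in raffinose (adjusted p = 0.00571) and ALG14 higher in glucose (adjusted p = 0.0301).

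ALG14 differed between galactose and glucose by −0.56 (SE 0.21, adjusted p = 0.0394), with −0.37, 0.11, −0.72 and −0.36 in galactose, against 0.33, 0.42, 0.11 and 0.05 in glucose. Galactose replicate 2 overlapped the glucose arrays. The call was lost without galactose replicate 1, 3 or 4 or glucose replicate 1, 2 or 3 (adjusted p from 0.0583 to 0.119) and when only the first probe of each gene was used. The mannosyltransferase genes ALG1 and ALG2 were not called in any sugar. ALG1 averaged −0.15 ± 0.36 in raffinose, −0.28 ± 0.32 in galactose and 0.15 ± 0.12 in glucose, and with the block it was called lower in galactose (adjusted p = 0.0103). ALG2 averaged 0.29 ± 0.27 in raffinose (adjusted p = 0.109), 0.01 ± 0.31 in galactose and 0.33 ± 0.16 in glucose (adjusted p = 0.0514), and was called higher in raffinose and glucose with the replicate block (adjusted p = 0.00539 and 0.00174).

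Among the 5 lumenal enzymes, ALG12 had different signs in different sugars. ALG12 (YNR030W), one of the lumenal mannosyltransferases, had 0.61, 0.58, 0.09 and 0.40 in raffinose, 0.01, −0.01, −0.32 and −0.36 in galactose, and −0.42, −0.39, −0.49 and −0.47 in glucose. The raffinose arrays were all above 0 and the glucose arrays all below, with no overlap between any 2 sugars. The mean of 0.42 ± 0.24 in raffinose was called higher (adjusted p = 0.0101), a call lost without raffinose replicate 1 or 2 (adjusted p = 0.0528 and 0.0539). The mean of −0.44 ± 0.05 in glucose was called lower (adjusted p = 0.00398). ALG12 was higher in raffinose than in galactose by 0.58 (SE 0.16, adjusted p = 0.0133) and higher than in glucose by 0.86 (SE 0.16, adjusted p = 0.00111).

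ALG8 (YOR067C), which adds the second glucose, was lower in galactose, with −0.36, −0.42, −1.08 and −1.11 there, against 0.01, 0.07, −0.23 and −0.26 in glucose. Its galactose mean was −0.74 ± 0.41 (adjusted p = 0.00219). All 4 galactose arrays lay below the glucose arrays, and the difference of −0.64 (SE 0.24, adjusted p = 0.0442) was lost without galactose replicate 3 or 4 or any 1 of the 4 glucose arrays (adjusted p from 0.0567 to 0.120), and with the first probe of each gene alone. ALG3 and ALG9, the other mannosyltransferases of this face, and ALG6, which adds the first glucose, were not called in any sugar, with means between −0.32 and 0.28. With the block ALG9 was called lower in galactose and glucose (adjusted p = 0.00142 and 0.00298), ALG3 higher in glucose (adjusted p = 0.0241), ALG6 higher in raffinose (adjusted p = 0.0273) and ALG8 lower in raffinose (adjusted p = 0.00837).

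Dpm1 and Alg5 make the mannose and glucose donors used inside the lumen. ALG5 (YPL227C), the gene for the glucose donor, had 0.23, −0.02, −0.39 and −0.23 in raffinose, −0.21, −0.04, −0.63 and −0.46 in galactose, and −1.08, −1.03, −1.21 and −1.03 in glucose. The glucose arrays were the lowest 4 of 12 and close to each other, and their mean of −1.09 ± 0.09 is a ratio of 0.47 (adjusted p = 8.82e-06). ALG5 was higher in raffinose than in glucose by 0.99 (SE 0.17, adjusted p = 0.000923) and in galactose than in glucose by 0.76 (SE 0.17, adjusted p = 0.00317). The galactose mean of ALG5, −0.33 ± 0.26 (adjusted p = 0.032), was called lower, and this call was lost without galactose replicate 3 or 4 (adjusted p = 0.172 and 0.107). DPM1 (YPR183W), for the mannose donor, was not called, with means of −0.17 ± 0.61 in raffinose, −0.22 ± 0.53 in galactose and −0.35 ± 0.43 in glucose, of which galactose and glucose were called lower with the block (adjusted p = 0.0296 and 0.00221).

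Of the 9 subunit genes of the oligosaccharyltransferase, 1 was called lower in raffinose, 6 in galactose and 6 in glucose, and none was called higher, where 14.3%, 25.2% and 31.8% of all genes were called lower. OST5 (YGL226C-A), a small subunit, had −0.45, −0.57, −1.40 and −1.41 in raffinose, −1.40, −1.18, −1.99 and −1.67 in galactose, and −0.69, −0.64, −0.66 and −0.80 in glucose. It was below 0 on all 12 arrays. Its means were −0.96 ± 0.52 in raffinose (a ratio of 0.514, adjusted p = 0.00106), −1.56 ± 0.35 in galactose (a ratio of 0.339, adjusted p = 8.22e-06) and −0.70 ± 0.07 in glucose (adjusted p = 0.00394). The galactose arrays lay below the glucose arrays, with a difference of −0.86 (SE 0.25, adjusted p = 0.0112).

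OST4 (YDL232W) encodes a very small membrane protein that holds Stt3 to the oxidoreductase subunit. It had log2 ratios of 0.20, −0.18, −0.71 and −0.57 in raffinose, −1.18, −1.34, −1.25 and −1.17 in galactose, and −0.92, −0.71, −0.38 and −0.59 in glucose. Galactose and glucose arrays were all below 0, and the galactose arrays were the lowest 4. The raffinose mean was −0.32 ± 0.41 (adjusted p = 0.0967), the galactose mean −1.24 ± 0.08 (a ratio of 0.425, adjusted p = 9.8e-06) and the glucose mean −0.65 ± 0.23 (adjusted p = 0.0015). OST4 was higher in raffinose than in galactose by 0.92 (SE 0.20, adjusted p = 0.00431) and lower in galactose than in glucose by −0.58 (SE 0.20, adjusted p = 0.0283). The call between galactose and glucose was lost without galactose replicate 2 or 3 or glucose replicate 3 or 4 (adjusted p from 0.0568 to 0.0885).

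Ost3 and Ost6 are alternative thioredoxin-like subunits that define 2 forms of the complex. OST6 (YML019W) had −0.71, −0.71, −1.51 and −1.44 in galactose, all below 0, with a mean of −1.09 ± 0.44 (a ratio of 0.469, adjusted p = 0.000782). OST3 (YOR085W) averaged −0.75 ± 0.45 there (adjusted p = 0.00812), a call lost without galactose replicate 3 (adjusted p = 0.0502). In glucose OST6 averaged −0.74 ± 0.40 (adjusted p = 0.0102) and OST3 −0.52 ± 0.43 (adjusted p = 0.049). The glucose call of OST6 needed glucose replicates 3 and 4 (adjusted p = 0.0550 and 0.0581 without either one), and that of OST3 under 7 single omissions (adjusted p up to 0.236). With the block OST6 was called lower in raffinose too, at −0.28 ± 0.56 (adjusted p = 0.00827). The difference between the 2 genes was not tested.

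STT3 (YGL022W), the gene of the catalytic subunit, was not called, with means of −0.43 ± 0.54 in raffinose (adjusted p = 0.109), −0.03 ± 0.38 in galactose and −0.31 ± 0.33 in glucose (adjusted p = 0.203). With the block STT3 was called lower in raffinose and glucose (adjusted p = 0.000685 and 0.00437). WBP1 and SWP1, both for subunits essential for growth, were lower in galactose at −0.63 ± 0.32 (adjusted p = 0.0031) and −0.70 ± 0.53 (adjusted p = 0.016). SWP1 was lower in glucose too, at −0.87 ± 0.23 (adjusted p = 0.00498), and its galactose call was lost without galactose replicate 3 or 4 (adjusted p = 0.0962 and 0.0775). OST1 was lower in glucose at −0.37 ± 0.21 (adjusted p = 0.041), a call lost under 4 single omissions (adjusted p up to 0.168), and in galactose at −0.32 ± 0.29 with the block alone (adjusted p = 0.00174). OST2 had the only positive mean among the subunits in glucose, 0.35 ± 0.42 (adjusted p = 0.154, or 0.00109 with the block), with arrays at 0.74, 0.68, 0.01 and −0.04.

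The O-mannosyltransferases were lower in glucose for 3 of 6 genes, with none called higher there, where 31.8% of all genes were called lower. PMT2 (YAL023C), whose protein pairs with Pmt1, had −0.43, −0.08, −1.10 and −0.65 in raffinose, 0.23, 0.23, −0.45 and −0.38 in galactose, and −0.56, −0.62, −1.32 and −1.32 in glucose. Every raffinose and glucose array was below 0, and the glucose arrays did not overlap the galactose arrays. The glucose mean was −0.95 ± 0.42 (adjusted p = 0.000879) and the raffinose mean −0.56 ± 0.43 (adjusted p = 0.0348). The raffinose call was lost without raffinose replicate 1, 3 or 4 (adjusted p from 0.0614 to 0.162). PMT2 was higher in galactose than in glucose by 0.86 (SE 0.27, adjusted p = 0.0186), a call lost without galactose replicate 1 or 2 or glucose replicate 3 or 4 (adjusted p from 0.0545 to 0.0610).

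PMT1 (YDL095W), the partner gene, was called higher in galactose, where its arrays read 0.94, 0.89, 0.05 and 0.11. All 4 were above 0, but replicates 3 and 4 were close to it, and the mean of 0.50 ± 0.48 (adjusted p = 0.038) lost its call without galactose replicate 1 or 2 (adjusted p = 0.181 and 0.171). In raffinose and glucose PMT1 averaged 0.02 ± 0.45 and 0.02 ± 0.24. PMT4 (YJR143C), whose product works as a pair with itself, had −0.72, −0.89, −1.14 and −1.33 in glucose, a mean of −1.02 ± 0.27 (adjusted p = 0.00125). It was below 0 on all 12 arrays, and its means of −0.58 ± 0.59 in raffinose and −0.45 ± 0.49 in galactose had adjusted p = 0.0513 and 0.0838, or 0.000292 and 0.000979 with the block. PMT3 (YOR321W) averaged −0.37 ± 0.14 in glucose (adjusted p = 0.0232), which did not pass once glucose replicate 3 or 4 was dropped (adjusted p = 0.0734 and 0.102), and differed by 0.62 between galactose and glucose (SE 0.18, adjusted p = 0.0119). PMT5 and PMT6 were not called in any sugar, with means from −0.30 to −0.0035. With the block PMT6 was called lower in raffinose and glucose (adjusted p = 0.00779 and 0.00771) and PMT3 higher in galactose (adjusted p = 0.017).

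Of the 37 members, 4 (SEC61, SSH1, OST5 and PMT4) were below 0 on all 12 arrays, a share close to the 8.55% of all genes. Among the members, OST5 and OST4 had the lowest means in galactose, and SEC61, ALG5 and SEC62 had the lowest in glucose. Between raffinose and galactose 4 members were called (2 higher, 2 lower), where 30.5% of all genes were called, 13.3% higher and 17.2% lower. Between galactose and glucose 12 were called (8 higher, 4 lower), where 47.1% of all genes were, 27.8% higher and 19.3% lower. Between raffinose and glucose 5 were called, all higher, where 37.6% of all genes were, 22.6% higher and 15.0% lower. The arrays of the 2 sugars did not overlap for 4, 14 and 5 members in these 3 contrasts, against 29.6%, 47.6% and 38.1% of all genes. The contrasts share arrays, so they are not separate evidence. With the block the counts were 23, 27 and 17 members, with 59.6%, 69.1% and 62.0% of all genes called.

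**Figure D3:**
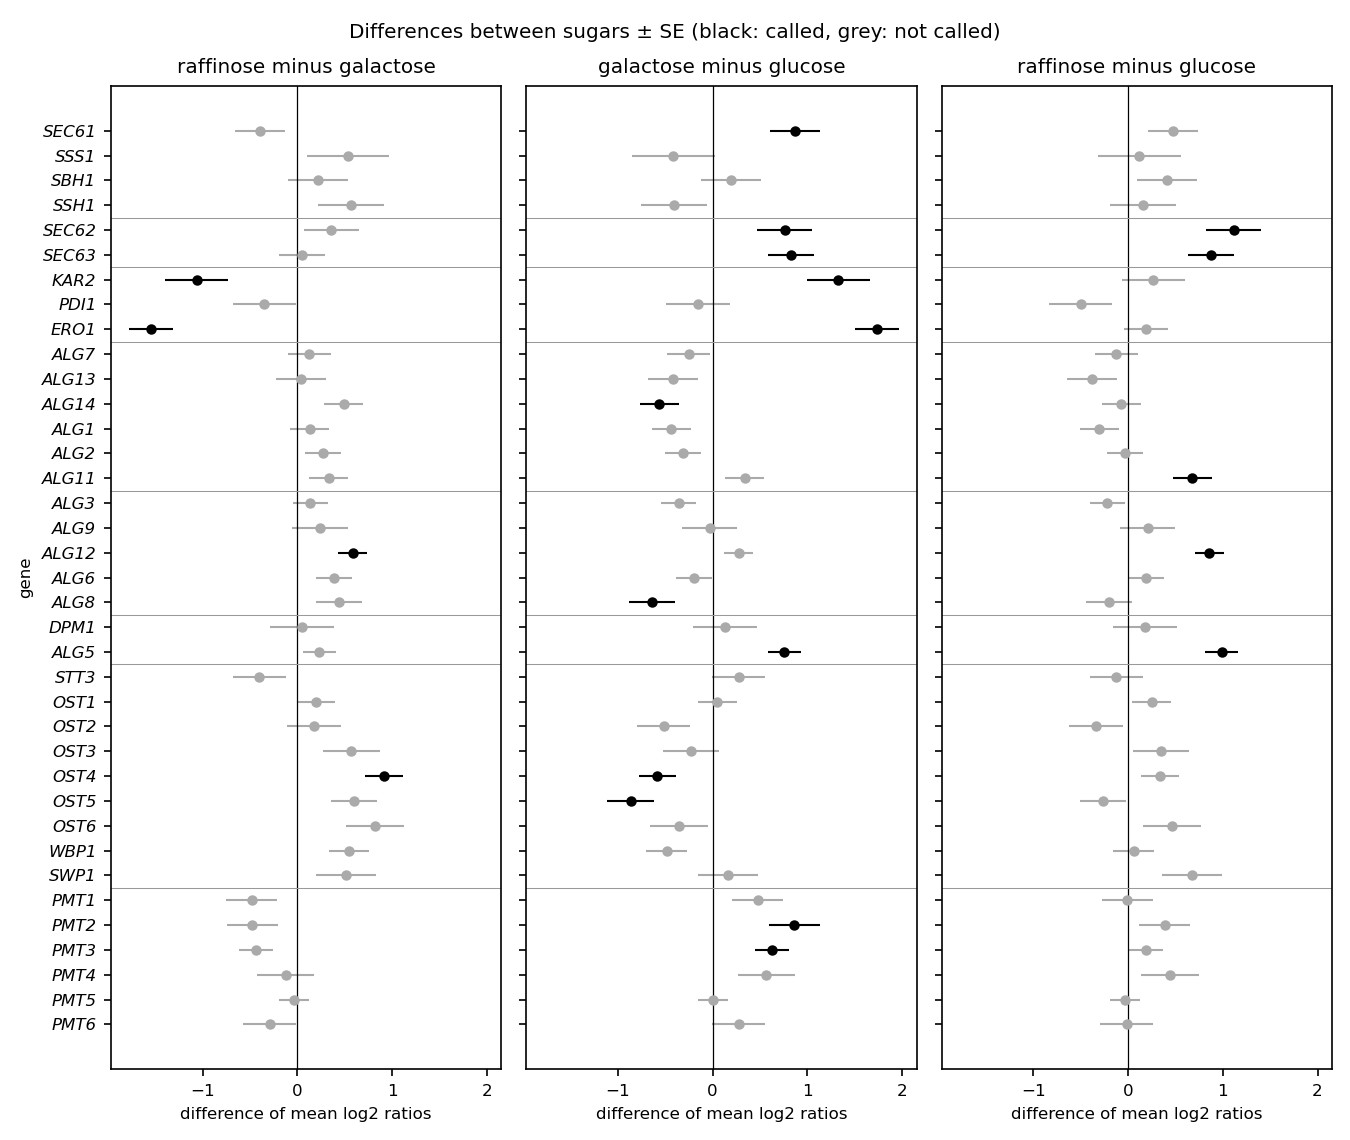
Differences in log2 ratio between sugars for the 37 members (raffinose minus galactose, galactose minus glucose, raffinose minus glucose); black points passed limma's test, grey points did not, and bars are standard errors. ERO1 and KAR2 stand farthest above 0 in galactose minus glucose, and SEC62 and ALG5 in raffinose minus glucose.

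Turning raffinose replicates 3 and 4 changed the sign of 27 of the 37 members in raffinose, 8 in raffinose minus galactose and 13 in raffinose minus glucose. In raffinose, replicates 1 and 2 averaged above replicates 3 and 4 for all 37 members (gaps of 0.288 to 1.20). Each turned raffinose mean therefore had to be positive, so the 27 sign changes in raffinose only restate the gap between the pairs. With these arrays turned, no member was called in raffinose by limma, with 14 at an unadjusted p under 0.05. No gene of the 5636 was called, GPM1 and ENO2 included, with 1463 at an unadjusted p under 0.05. The mean log2 ratio became 0.35 for SEC61, 0.45 for OST5, 0.44 for KAR2, 0.31 for PMT2 and 0.52 for SBH1, each called lower as deposited, while ALG11 and ALG12 gave 0.31 and 0.18. The members' median in raffinose became 0.37. Against galactose 21 members were then called (20 higher, 1 lower), where 44.4% of all genes were (26.6% higher, 17.8% lower). Against glucose 23 were called, all higher, where 48.0% of all genes were (32.0% higher, 16.0% lower). ERO1 was still lower in raffinose than in galactose, by −0.79 (adjusted p = 0.0186), and OST4 higher, by 1.56 (adjusted p = 0.000332). ALG5, SEC62 and SEC63 were still higher in raffinose than in glucose (differences of 1.30, 1.57 and 1.19), while KAR2 differed from galactose by 0.04. ALG12 no longer passed between raffinose and galactose (0.34, adjusted p = 0.230), nor ALG11 between raffinose and glucose (0.58, adjusted p = 0.0649). In the same fit, with their values unchanged, calls were also lost for OST5 in glucose (adjusted p = 0.0708) and for SEC61, OST5 and PMT2 in galactose minus glucose (adjusted p = 0.120, 0.133 and 0.0610).

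The genes that work beside the members numbered 79 in 5 lists. In raffinose 9 were called higher and 11 lower, in galactose 24 and 18, and in glucose 8 and 23, with medians of 0.06, 0.00 and −0.06. Over all genes 22.4% were called higher and 14.3% lower in raffinose, 34.8% and 25.2% in galactose, and 26.8% and 31.8% in glucose. With replicates 1 and 2, and 3 and 4, averaged, 0 of the 79 were called higher and 1 lower in raffinose. In that setting 8 were called higher and 5 lower in galactose, and 0 and 6 in glucose. Every call of a related gene as higher in raffinose or glucose was thus lost there. Of all 5636 genes, 184, 1688 and 1564 were called in that setting. The 18 targeting and signal peptidase genes, which bring proteins to the channel and cut their signals, had 2 higher and 2 lower in raffinose, 1 and 6 in galactose, and 1 and 11 in glucose, with a median of −0.57 in glucose. SBH2 (YER019C-A), the beta subunit of the Ssh1 channel, was lower in raffinose at −0.85 ± 0.67, in galactose at −1.34 ± 0.46 and in glucose at −1.14 ± 0.52 (adjusted p = 0.0182, 0.000491 and 0.00163). YDR292C, the gene of the alpha subunit of the receptor of the signal recognition particle (SRP), was higher in galactose at 0.54 ± 0.33 and lower in glucose at −1.24 ± 0.16, and SRP72, an SRP subunit gene, was lower in glucose at −1.16 ± 0.21. SRP14 was lower in raffinose at −0.43 ± 0.08 and in galactose at −0.88 ± 0.34, SPC1 of the signal peptidase was lower in galactose at −0.79 ± 0.36, and SPC2 was higher in glucose at 0.60 ± 0.38. GET3 and SRP68 were higher in raffinose at 0.53 ± 0.42 and 0.51 ± 0.45.

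The 13 other folding and unfolded protein response genes had 9 higher and 0 lower in galactose (34.8% and 25.2% of all genes). They had 3 higher and 2 lower in raffinose (22.4% and 14.3% of all genes), and 1 higher and 3 lower in glucose (26.8% and 31.8%). Their medians in the 3 sugars were 0.20 (raffinose), 0.47 (galactose) and −0.10 (glucose). JEM1 and ERJ5, whose products are co-chaperones of Kar2, and EPS1, of the disulfide isomerase family, were higher in galactose at 1.22 ± 0.18, 1.04 ± 0.17 and 1.09 ± 0.36. ERJ5, MPD1 and JEM1 were also higher in raffinose, at 0.65 ± 0.24, 0.54 ± 0.17 and 0.37 ± 0.09. SCJ1, another co-chaperone gene, was lower in raffinose at −0.72 ± 0.47 and in glucose at −1.13 ± 0.16, where MPD1 was higher at 0.36 ± 0.17. LHS1 was higher in galactose at 1.02 ± 0.37 and lower in glucose at −0.53 ± 0.16. HAC1 (YFL031W), the transcription factor gene of the unfolded protein response, was lower in raffinose at −1.09 ± 0.55 (adjusted p = 0.00152) and in glucose at −0.77 ± 0.26 (adjusted p = 0.00654), and averaged −0.35 ± 0.50 in galactose (adjusted p = 0.166). IRE1, whose product splices HAC1 mRNA, averaged 0.11 ± 0.14 in raffinose and −0.14 ± 0.07 in glucose, and was higher in galactose at 0.26 ± 0.07 (adjusted p = 0.0221). Hac1 activity depends on splicing of its mRNA, which a gene's averaged ratio does not measure.

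**Figure D4:**
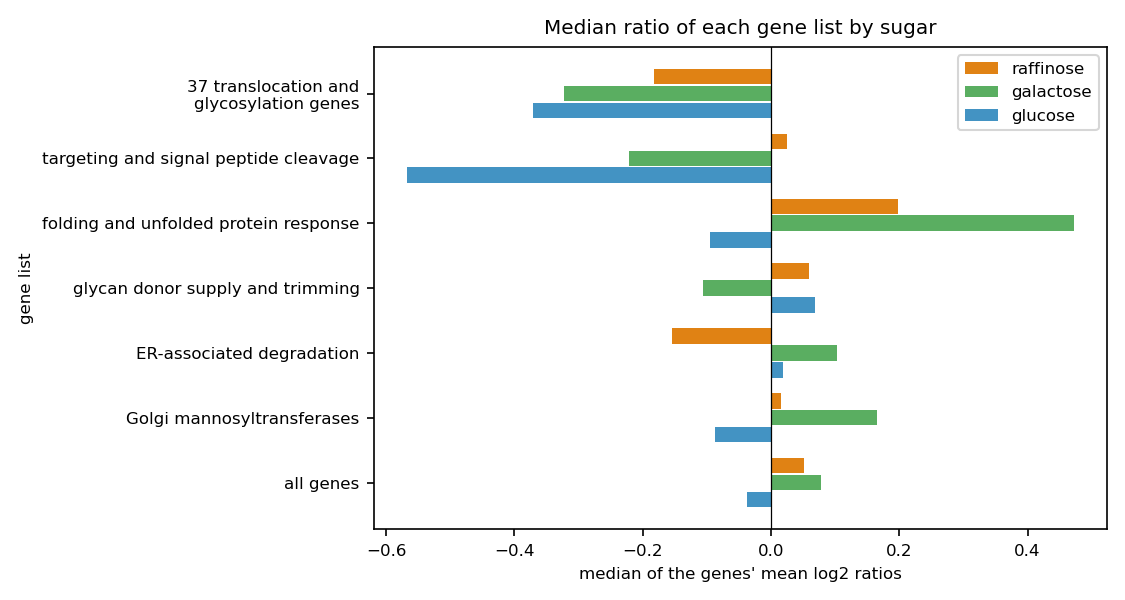
Median of the genes' mean log2 ratios (horizontal axis) in raffinose, galactose and glucose (bars) for the 37 members, the 5 lists of related genes and all genes. The folding list lies highest in galactose (median 0.47) and the targeting list lowest in glucose (median −0.57).

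The 19 genes of sugar donor supply and glycan trimming had 3 higher and 3 lower in raffinose, 4 and 6 in galactose, and 4 and 3 in glucose. For this list and the next, the shares of all genes called higher and lower were 22.4% and 14.3% in raffinose, 34.8% and 25.2% in galactose, and 26.8% and 31.8% in glucose. CWH41, the gene of glucosidase I, which removes the outermost glucose after transfer, was higher in all 3 sugars at 0.66 ± 0.48, 1.17 ± 0.47 and 0.76 ± 0.26 in raffinose, galactose and glucose. NUS1, for dolichol synthesis, was higher in raffinose at 0.62 ± 0.26 and in glucose at 0.61 ± 0.07, and CNE1, the calnexin gene, in raffinose at 0.41 ± 0.16. GFA1, which starts hexosamine synthesis, was higher in galactose at 0.91 ± 0.56 and in glucose at 0.67 ± 0.69, and ROT2, of glucosidase II, in galactose at 0.45 ± 0.32. SEC53 and PSA1, whose enzymes make GDP-mannose, were lower in galactose at −1.004 ± 0.64 and −0.86 ± 0.65, and SEC53 in glucose at −0.78 ± 0.65. CAX4, which recycles the dolichol carrier, was lower in raffinose at −0.32 ± 0.08 and in galactose at −0.67 ± 0.11. PCM1 was lower in raffinose at −1.17 ± 0.57, MNL1 in raffinose at −0.41 ± 0.19 and in glucose at −1.08 ± 0.12, and RER2 in glucose at −0.43 ± 0.15. Of the 9 ER-associated degradation genes, 0 were called higher and 1 lower in raffinose, 2 and 2 in galactose, and 0 and 0 in glucose. They were USA1 in raffinose at −0.41 ± 0.13, and in galactose YOS9 at 1.05 ± 0.29, PNG1 at 0.58 ± 0.26, CUE1 at −0.69 ± 0.35 and UBC7 at −0.53 ± 0.41.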

How the data were processed

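Ratios of 12 two-colour Agilent arrays were read from the authors' deposited table, 4 arrays per sugar, grouped by title. The deposited values were taken as log2 ratios from their size. The sources used here do not give how the authors normalized them or whether they had turned dye-swapped arrays. The table held 10807 probes. GEO's platform annotation gave 9271 of them 1 gene, all 9271 matched to the R64 gene table, and 1536 were not named. Spot brightness was not in the values used, so the number of arrays limits the precision, and each array had 10 to 51 missing values. Probes were averaged per gene, giving 5636 genes (22 members had 2 probes and 15 had 1, with a largest gap between probes of 0.349). Probe sequences were not used, so cross-reaction between related genes was not tested.

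A model with 1 mean per sugar was fitted across all genes with limma 3.58.1 in R 4.3.3 (lmFit, eBayes), and p-values were adjusted by Benjamini-Hochberg over all genes, with calls at 0.05. Same-numbered arrays of different sugars deviated together (r from 0.522 to 0.893, or −0.321 to 0.153 once each gene's mean gap between the pair 1, 2 and the pair 3, 4 was removed), so values with the replicate number as a block are given where they change a member's call in a sugar, and as counts for the contrasts. Alternatives were median centring, an orientation term, 3 ways of averaging arrays in pairs, the first probe alone, sugars fitted alone, a stricter threshold, turned raffinose arrays and single arrays left out. Values on single arrays are given for the 4 highest and 4 lowest called members of each sugar with 1 sign on all arrays, and the 3 highest and 3 lowest of each contrast, while other members appear by their means. Single arrays of ALG11, ALG14, OST2 and PMT4, and of PMT2 in galactose and glucose, were added after their values were seen. Up to 3 called related genes per list, direction and sugar were named, those furthest from 0, with HAC1, IRE1, GCR1, GPM1 and ENO2 whatever their values. The members, the lists and the rule for named genes were chosen with earlier results of these data known.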

Additional observations from a re-analysis of the deposited data

Results flagged for a closer look

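The mutant's log2 ratio differed between 2 sugars for 21 combinations of gene and contrast, by limma's test of the difference at an adjusted p under 0.05. Raffinose minus galactose gave −1.06 for KAR2, −1.55 for ERO1, 0.58 for ALG12 and 0.92 for OST4. Galactose minus glucose gave 0.87 for SEC61, 0.76 for SEC62, 0.82 for SEC63, 1.33 for KAR2, 1.73 for ERO1, −0.56 for ALG14, −0.64 for ALG8, 0.76 for ALG5, −0.58 for OST4, −0.86 for OST5, 0.86 for PMT2 and 0.62 for PMT3. Raffinose minus glucose gave 1.12 for SEC62, 0.87 for SEC63, 0.68 for ALG11, 0.86 for ALG12 and 0.99 for ALG5. The SEC61 difference lost its call without glucose replicate 4 (adjusted p = 0.0527). For ERO1 the difference was −1.45 on replicates 1 and 2 and −1.64 on replicates 3 and 4 between raffinose and galactose, and 2.09 and 1.38 between galactose and glucose. For OST4 the raffinose minus galactose difference was 1.27 on replicates 1 and 2 and 0.57 on replicates 3 and 4. No member's value on 1 of 4 arrays of a sugar stood apart from the other 3 by Dixon's test.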

How the results depend on the processing

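All 59 calls of members over the 3 sugars and the 3 contrasts kept their sign and their call with median centring, an orientation term, the replicate block, values on all 12 arrays, a robust prior, and with replicates 1 and 3, and 2 and 4, or 1 and 4, and 2 and 3, averaged. Apart from centring, these settings leave a member's mean or difference unchanged, so its sign could not change. The orientation term, the block and these 2 averages also take the gap between the pair 1, 2 and the pair 3, 4 out of the error. They therefore cannot test the calls against that gap. Centring takes out the part of the gap that lies in the array medians, so it can test the calls against it only in part. Averaging replicates 1 and 2, and 3 and 4, leaves the gap in the error and kept 10 of the 59 calls. The first probe alone lost 2 of the 59, sugars fitted alone or in pairs kept 51, and an adjusted p under 0.01 kept 31. Turned raffinose arrays kept 45, lost 8 and changed the sign of 6. Which arrays repeat which culture, and the direction of the ratios, limit every result.

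Counts of called members follow in the order raffinose, galactose, glucose, raffinose minus galactose, galactose minus glucose, raffinose minus glucose, where the reported counts were 7, 13, 18, 4, 12 and 5. The replicate block gave 20, 26, 28, 23, 27 and 17. Median centring subtracted each array's median, which ran from −0.188 (raffinose replicate 3) to 0.296 (galactose replicate 1). It moved the means of sugars and their differences by up to 0.164, the shift in galactose minus glucose. Centring gave 23 (4 higher, 19 lower), 26 (2 and 24), 25 (6 and 19), 16 (12 and 4), 20 (8 and 12) and 9 (5 and 4). The orientation term gave 23, 28, 28, 25, 28 and 18. Averaging replicates 1 and 2, and 3 and 4, gave 0 (limma, with 2 at an unadjusted p under 0.05), 5, 4, 0 (2 unadjusted), 1 and 0 (3 unadjusted). Of all 5636 genes, 184, 1688, 1564, 84, 796 and 132 were called in this setting. Averaging 1 and 3, and 2 and 4, gave 21 in raffinose, 26 in galactose, and 22, 25 and 17 in the contrasts. Averaging 1 and 4, and 2 and 3, gave 29, 29, 30, 29, 32 and 28. Requiring an adjusted p under 0.01 gave 2 in raffinose and 2, 3 and 3 in the contrasts, and sugars fitted alone gave 2 in raffinose. Leaving out single arrays gave 3 to 9, 9 to 15, 13 to 19, 4 to 7, 7 to 12 and 4 to 5.

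With raffinose replicates 3 and 4 turned, 0 were called in raffinose, 21 against galactose and 23 against glucose. Among values called in either setting, the sign in raffinose changed for KAR2 (0.44), OST5 (0.45), PMT2 (0.31), SBH1 (0.52) and SEC61 (0.35). It changed for KAR2 (0.042) and PMT4 (0.95) in raffinose minus galactose, and for OST5 (1.14) and STT3 (0.75) in raffinose minus glucose.

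Of the 79 related genes, 20 were called in raffinose, against 37 with centring, 43 with the replicate block, 46 with the orientation term, 1, 49 and 63 with the 3 averages in the order above, 0 with turned arrays (limma, 32 unadjusted), 7 fitted alone, 11 at an adjusted p under 0.01, and 15 to 22 without single arrays. In galactose the first and last averages gave 13 and 69, in glucose 6 and 58, and leaving out single arrays gave 35 to 44 and 23 to 33.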

Other observations

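Downstream of the ER, the 20 genes of the Golgi mannosyltransferases, which extend the glycans begun by the members, had 1 higher and 3 lower in raffinose, 8 higher and 4 lower in galactose, and 2 higher and 6 lower in glucose. The shares of all genes called higher and lower were 22.4% and 14.3% in raffinose, 34.8% and 25.2% in galactose, and 26.8% and 31.8% in glucose. No call of these genes as higher in raffinose or glucose was kept with replicates 1 and 2, and 3 and 4, averaged. KTR2 (YKR061W), of a family of Golgi mannosyltransferases, was lower in raffinose at −1.75 ± 0.29 (adjusted p = 9.83e-07 by limma). In galactose it was higher at 2.79 ± 0.26 (adjusted p = 1.34e-08), while its glucose mean was 0.14 ± 0.15. MNN4, which promotes the addition of mannosylphosphate to these glycans, was higher in galactose at 2.62 ± 0.28, as was YUR1 at 0.78 ± 0.37. MNN11 was lower in raffinose at −0.60 ± 0.48, in galactose at −1.02 ± 0.34 and in glucose at −0.76 ± 0.20. MNN1, which caps the chains with a terminal mannose, was lower in raffinose at −0.88 ± 0.43 and in glucose at −1.10 ± 0.17, where MNN10 was lower at −1.10 ± 0.26. MNN5 and KTR1 were lower in galactose at −0.76 ± 0.53 and −0.66 ± 0.50, KTR5 was higher in raffinose at 0.38 ± 0.09, and KTR6 and KTR4 were higher in glucose at 0.82 ± 0.11 and 0.66 ± 0.17.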
